A study of Mus musculus with 20 samples.

Results

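Rn7sk, Rmrp and Rpph1 were followed through 20 RNA-seq libraries of SIMS cells, a mouse salivary gland line. These 3 non-coding RNAs are transcribed by RNA polymerase III (Pol III). They were chosen by their GENCODE M21 symbols, and together they hold 4 of the 55471 gene identifiers of the count table, since Rmrp is listed under 2. The libraries formed 5 groups of 4: wild type (unedited), Btbd7 KO, and Zcchc8 KO clones 1, 2 and 3. Both knockouts were made with CRISPR/Cas9, and the series names Btbd7 KO as its negative control. Each Zcchc8 KO clone is 1 edited line, all cells were grown in DMEM with serum, and nothing in the labels says that replicates were separate cultures, so the p-values measure the spread between these libraries only. The series examined how transcription of genomic regulatory features differs in these cells. A second table gave counts for PROMPT regions (promoter upstream transcripts), each named by the gene upstream of whose start it lies, in 19 of the 20 libraries, with 3 of wild type.

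The 7SK RNA made from Rn7sk is the scaffold of a small nuclear ribonucleoprotein. Capped by MEPCE and held at its end by LARP7, it lets HEXIM proteins bind and silence P-TEFb, the kinase of CDK9 and a cyclin T that releases paused RNA polymerase II. Rmrp encodes the RNA of RNase MRP, which cuts precursor ribosomal RNA, and Rpph1 the RNA of RNase P, which trims the 5′ end of precursor tRNA. Those enzymes share most of their proteins. The 3 genes have promoters of the type that lies wholly upstream of the transcribed bases and is read by SNAPc, BRF2 and BDP1. ZCCHC8, the product of Zcchc8, holds together the nuclear exosome targeting complex (NEXT). This complex hands short-lived nuclear transcripts, PROMPTs among them, to the RNA exosome.

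The libraries held 6833258 to 17771804 counts in genes and 1569548 to 3966608 in PROMPT regions. Wild-type replicate 1, absent from the PROMPT table, stood apart: it had counts for 14245 genes, and each of the remaining 19 libraries for 17442 to 20889. All 7 epithelial markers looked at (Krt8, Krt18, Krt7, Krt19, Epcam, Cdh1 and Cldn7) were present in every library, at group means of 62.9 CPM for Cldn7 or more (CPM is the count scaled to the library's TMM-adjusted gene total). Of 5 salivary acinar markers, Aqp5 was present at 111 to 178 CPM on average, and Amy1, Mucl2, Prol1 and Bhlha15 stayed under 2 CPM in every group mean. Ptprc, Pecam1, Cdh5, Dcn and Pdgfra, which mark immune, endothelial and connective tissue cells, were under 1 CPM in every group mean. Col1a1 (10.7 to 24.3 CPM), Col1a2 (0.656 to 2.36 CPM) and Cd68 (5.54 to 11.2 CPM) were present. Some of these markers moved with the groups. In the clones against wild type Col1a1 rose by 0.67 and Cd68 by 0.58 on the log2 scale, and Krt7, Krt18, Krt8 and Aqp5 fell by 0.59, 0.46, 0.38 and 0.42 (edgeR adjusted p from 7.24e-07 for Aqp5 to 0.00386 for Cd68). Not called in single clones were Col1a1 in clone 1 (-0.090), Krt8 in clone 2 (-0.10) and Cd68 in clone 3 (-0.015). Krt19 (-0.11), Epcam (0.05), Cdh1 (0.03) and Cldn7 (0.15) were not called for the clones together. Taken singly, Krt19 was called lower in clones 1 and 3 (-0.35 and -0.57) and higher in clone 2 (0.60). Cdh1 was called lower in clone 2 (-0.19) and higher in clone 3 (0.19), and Cldn7 higher in clone 3 (0.33). In Btbd7 KO Col1a1 rose by 0.66 and Col1a2 by 1.81 (edgeR adjusted p 0.00369 and 0.0217). Cldn7 and Krt19 rose there by 0.40 and 0.32, and Aqp5 fell by 0.68 (edgeR adjusted p 0.00314, 0.0422 and 6.86e-08). The part of these marker changes in the results that follow was not tested. Zcchc8 RNA was lowest in clone 2, at 23.3 ± 1.35 CPM (SD, n = 4), against 65.1 ± 2.92 in wild type, and clones 1 and 3 held 60.3 ± 4.28 and 54.6 ± 4.84. On the log2 scale clones 2 and 3 were called lower than wild type (-1.48 and -0.26, edgeR adjusted p 5.19e-13 and 0.0135). Clone 1 was not called (-0.11, edgeR adjusted p 0.291). Btbd7 RNA stood at 99.2 ± 3.23 CPM in Btbd7 KO and 201.9 ± 7.64 in wild type. RNA counts do not show the edit itself.

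Rn7sk was the only abundant member by its own identifier. Rmrp had no count under either identifier in any of the 20 libraries, and Rpph1 had 0 to 9. The PROMPT regions of genes that overlap Rmrp or Rpph1 or start beside them (Ccdc107, Parp2 and Ccnb1ip1), however, held 5877 to 69810 counts per region and library.

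Rn7sk (ENSMUSG00000065037.1) is annotated as a miscellaneous RNA of 1 exon of 331 bases on the minus strand of chromosome 9, at chr9:78175303-78175633 (GENCODE M21, GRCm38). Its first 300 bases are given here because copies of it lie elsewhere in the genome; the 241 capital letters are those that the annotated gene Gm24447 repeats without a difference.

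Rn7sk: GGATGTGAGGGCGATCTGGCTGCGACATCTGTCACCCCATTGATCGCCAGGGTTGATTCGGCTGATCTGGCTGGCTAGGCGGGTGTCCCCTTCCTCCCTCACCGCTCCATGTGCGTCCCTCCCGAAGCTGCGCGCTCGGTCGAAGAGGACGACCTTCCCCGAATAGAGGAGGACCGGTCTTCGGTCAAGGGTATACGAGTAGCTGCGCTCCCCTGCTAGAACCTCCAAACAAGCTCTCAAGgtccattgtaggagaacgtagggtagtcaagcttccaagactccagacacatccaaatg

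BLAST against all M21 transcripts found 39 such copies in the table with at least 80% identity over at least 100 bases. They include Gm26315, at 99.58% over 238 bases, and Gm24146, at 97.48% over 238 bases. Reads from the shared bases cannot be told apart by sequence, and how the counter treated them is not given in the sources used here. In the deposited counts 14 of the 39 copies were at 0 in every library, 9 reached 10 counts in some library, and all 39 together held 43 to 136 counts per library.

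Rmrp is listed as a long intergenic RNA (ENSMUSG00000115420.1, chr4:43492783-43493063, minus strand, 281 bases) and as a ribozyme (ENSMUSG00000088088.1, chr4:43492788-43493058, minus strand, 271 bases). The 271 bases in capitals belong to both, so each read that covers them has 2 possible owners.

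Rmrp: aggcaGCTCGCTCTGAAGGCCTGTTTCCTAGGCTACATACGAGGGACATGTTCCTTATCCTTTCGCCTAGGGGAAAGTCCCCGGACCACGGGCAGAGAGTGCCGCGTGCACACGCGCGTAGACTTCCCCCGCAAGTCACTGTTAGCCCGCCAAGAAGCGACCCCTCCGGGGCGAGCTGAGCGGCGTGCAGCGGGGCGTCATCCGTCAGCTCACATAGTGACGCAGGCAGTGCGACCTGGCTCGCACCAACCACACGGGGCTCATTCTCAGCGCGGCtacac

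The protein-coding gene Ccdc107 (chr4:43492900-43495921) starts inside Rmrp and runs the opposite way, on the plus strand. Its exons cover 124 bases of Rmrp, and 117 bases of the longer Rmrp model lie upstream of its start.

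Rpph1 (ENSMUSG00000092837.1) is a ribozyme of 319 bases on the minus strand, at chr14:50807449-50807767. Capital letters in its first 300 bases mark the 233 bases that are also annotated as an exon of Ccnb1ip1 (chr14:50789248-50807732), a protein-coding gene on the same strand that starts 35 bases inside Rpph1.

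Rpph1: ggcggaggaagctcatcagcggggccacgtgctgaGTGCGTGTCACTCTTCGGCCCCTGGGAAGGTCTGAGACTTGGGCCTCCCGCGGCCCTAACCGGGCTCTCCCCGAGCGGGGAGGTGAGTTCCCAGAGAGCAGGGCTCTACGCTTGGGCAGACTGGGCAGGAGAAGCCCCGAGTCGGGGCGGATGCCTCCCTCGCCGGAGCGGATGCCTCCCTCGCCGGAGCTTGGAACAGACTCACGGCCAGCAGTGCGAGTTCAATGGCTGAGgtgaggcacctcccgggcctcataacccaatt

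Parp2 (chr14:50807841-50821301, plus strand), which encodes a poly(ADP-ribose) polymerase, starts 74 bases from the start of Rpph1 and runs away from it. All 319 bases of Rpph1 therefore lie upstream of Parp2. The RefSeq window of 300 bases around the start that RefSeq gives Parp2 (chr14:50807666-50807965, plus strand, GRCm38.p6) shows this back-to-back arrangement. Its 102 capitals are Rpph1 read in reverse complement.

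Window at the Parp2 start: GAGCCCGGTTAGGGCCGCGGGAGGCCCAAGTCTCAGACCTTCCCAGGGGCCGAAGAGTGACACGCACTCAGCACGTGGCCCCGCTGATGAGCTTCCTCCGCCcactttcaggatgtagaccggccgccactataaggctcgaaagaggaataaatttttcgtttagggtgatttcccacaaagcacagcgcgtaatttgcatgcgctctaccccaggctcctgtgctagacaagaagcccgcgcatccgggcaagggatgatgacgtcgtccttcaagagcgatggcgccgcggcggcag

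The motif TATAA was searched on both strands, where matches can overlap, and reads TTATA on the other strand; 24.9% of all 32851 RefSeq windows hold it. In the Parp2 window it occurs once, at chr14:50807796-50807800, 29 bases from the Rpph1 start.

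C920006O11Rik, a long intergenic RNA gene (chr9:78175914-78178879, plus strand), starts 281 bases from the start of Rn7sk and runs away from it, so all 331 bases of Rn7sk lie upstream of it. The window at its start (chr9:78175664-78175963, plus strand, GRCm38.p6) contains no base of Rn7sk and lies mostly between the start sites of the pair. Its 11 capitals mark that motif on either strand, and the nearest match inside the window begins 93 bases from the Rn7sk start. The bases between the Rn7sk start and this window were not searched.

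Window at the C920006O11Rik start: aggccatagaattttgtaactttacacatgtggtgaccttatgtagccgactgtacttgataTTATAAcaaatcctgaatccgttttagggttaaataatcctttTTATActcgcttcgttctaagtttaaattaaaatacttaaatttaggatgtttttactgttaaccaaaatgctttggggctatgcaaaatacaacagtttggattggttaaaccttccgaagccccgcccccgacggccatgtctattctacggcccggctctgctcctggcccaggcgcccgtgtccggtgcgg

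Rn7sk was 1 of the 4 most counted genes in every library. It took 80009 to 225210 counts, or 0.976% to 1.35% of all gene counts, and ranked 3 or 4. Wild-type replicates 1 to 4 stood at 11162, 11083, 12216 and 12171 CPM. The Btbd7 KO libraries held 10845, 10715, 10938 and 10072 CPM. All 4 of them were below every wild-type library, and how many of all genes separate in this way was not counted.

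Clone 1 of Zcchc8 KO held 11843, 12797, 11583 and 12862 CPM. Clone 2 held 11610, 11506, 12846 and 11532, where replicate 3 was far above its companions. Clone 3 held 12303, 10742, 13000 and 12711. The clones overlapped wild type: 6 of their 12 libraries were above all 4 wild-type libraries. Against Btbd7 KO, 11 of the 12 were above all 4.

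**Figure D1:**
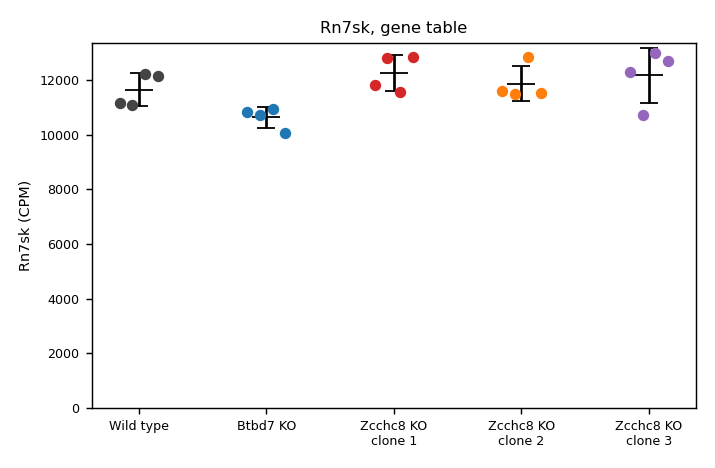
Rn7sk level in CPM (vertical axis, from 0) in each of the 20 libraries, by group (horizontal axis). Points are libraries, and the horizontal mark and bar give mean and SD; group means run from 10643 CPM in Btbd7 KO to 12271 CPM in Zcchc8 KO clone 1.

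The level of Rn7sk was 11658 ± 620 CPM in wild type (SD, n = 4), 10643 ± 391 in Btbd7 KO, and 12271 ± 654, 11873 ± 650 and 12189 ± 1006 in clones 1, 2 and 3. Clone 1 was highest and Btbd7 KO lowest, and no neighbours in the order clone 1, clone 3, clone 2, wild type differed by more than their SD, whereas Btbd7 KO lay further than that below wild type. The clones' mean less the wild type was 0.05 on the log2 scale (SE 0.05, 95% interval -0.04 to 0.15), which edgeR's quasi-likelihood test did not call at a Benjamini-Hochberg adjusted p of 0.38. In that comparison 36.1% of the 15297 genes tested were called in either direction. With library totals in place of TMM the difference was 0.13 and called at an adjusted p of 0.0292.

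Taken singly, the clones differed from wild type by 0.07, 0.03 and 0.06 (adjusted p 0.331, 0.763 and 0.431 by the same edgeR test). None was called, where 35.8%, 32.3% and 29.3% of genes were; without TMM clone 1 was called at 0.15 (adjusted p 0.0496). The test of a difference among the clones gave an adjusted p of 0.807, against 28.5% of genes called. The 95% intervals of these differences ended at 0.18, 0.14 and 0.17 on the log2 scale. In Btbd7 KO the log2 fold change was -0.13 (SE 0.06, adjusted p 0.118, with 15.7% of genes called), and without wild-type replicate 1 it was -0.14 and called at 0.0453.

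Between the edited lines Rn7sk did differ. Zcchc8 KO clones averaged 1.14-fold the Btbd7 KO level, a log2 difference of 0.19 (SE 0.05, edgeR adjusted p 0.00209), where 41.1% of genes were called. In such bulk RNA, fewer cells with an RNA and less of it per cell cannot be told apart. Of all other tested genes, Ctns, Map4k3 and Cisd2 had the levels most correlated with Rn7sk over the 20 libraries (Pearson r 0.804, 0.778 and 0.766 among 15296 genes compared). The libraries share their group structure and scaling, so these values describe these libraries only.

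Nearly the same counts appear under another name in the PROMPT table. There the region of C920006O11Rik held 80077 to 225233 counts, and in each of the 19 libraries this was the Rn7sk gene count plus 1 to 68 counts (median 20). The excess amounted to 0.0011% to 0.085% of Rn7sk. The region ranked 1 or 2 among 55471 in every library. In the edgeR fit this region was called neither in the clones against wild type (log2 0.03, adjusted p 0.599) nor in Btbd7 KO (-0.15, adjusted p 0.132). Against Btbd7 KO the clones were called higher (0.19, edgeR adjusted p 0.000179), where 45.1% of regions were. Since the counts are nearly those of Rn7sk, these values are not a separate result.

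**Figure D2:**
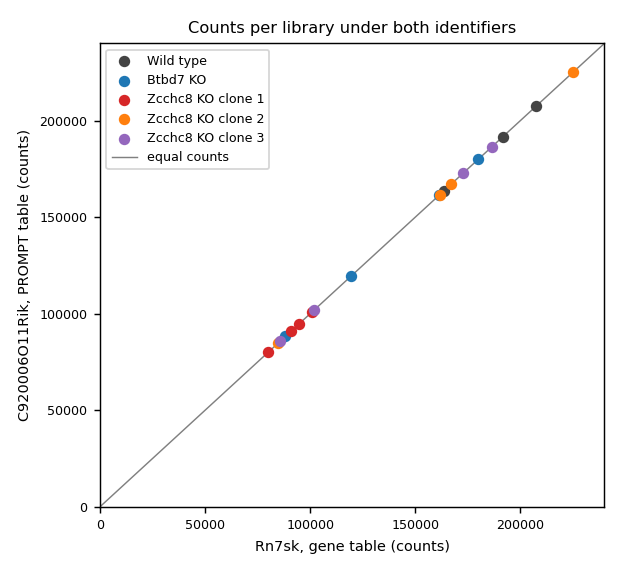
Counts listed for Rn7sk in the gene table (horizontal axis) against counts listed for the C920006O11Rik region in the PROMPT table (vertical axis), 1 point per library, with the line of equal counts. All 19 points lie on the line within 68 counts.

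The region upstream of Rn7sk itself, which faces C920006O11Rik, was thinly covered and was higher in every Zcchc8 KO clone. Wild-type replicates 2, 3 and 4 had 12, 7 and 16 counts, and Btbd7 KO had 18, 20, 8 and 3. Clone 1 had 31, 32, 31 and 30 counts from shallow libraries, clone 2 had 23, 69, 71 and 74, and clone 3 had 32, 19, 22 and 58. Scaled to CPM, all 12 clone libraries were above all 3 wild-type and all 4 Btbd7 KO libraries. How many of all regions separate in this way was not counted, here or for the regions below.

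Mean levels of this region were 0.719 ± 0.209 CPM in wild type (SD, n = 3), 0.915 ± 0.463 in Btbd7 KO, and 4.17 ± 0.298, 4.31 ± 0.898 and 2.85 ± 0.766 in clones 1, 2 and 3. The clones were 5.08-fold higher than wild type on average, or 2.35 on the log2 scale (SE 0.35, by edgeR an adjusted p of 4.66e-08). Among all 17617 PROMPT regions tested, 39.2% were called higher in that comparison, and the median log2 fold change was 0.43. With counts summed per cell line, so that the 3 clones were compared with wild type and Btbd7 KO together, the value was 2.19 and called (edgeR adjusted p 0.000107); that setting changes the comparator as well as the replicate.

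Each clone was called on its own, at log2 fold changes of 2.50, 2.56 and 1.97 (edgeR adjusted p 1.63e-07, 5.86e-08 and 2.33e-05), where 38.7%, 35.1% and 36.4% of regions were called higher. No difference among the clones was called (adjusted p 0.366, with 10.9% of regions called). Btbd7 KO was not called, at 0.35 (SE 0.42, adjusted p 0.741, with 2.97% of regions called in either direction). Against Btbd7 KO the clones were 3.97-fold higher (edgeR adjusted p 8.62e-08), where 45.1% of regions were called higher.

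Within each library, the log2 ratio of this region to the Rn7sk gene does not depend on scaling. It was -13.98 ± 0.40 in wild type (SD, n = 3) and -11.50 ± 0.16, -11.44 ± 0.33 and -12.07 ± 0.31 in clones 1, 2 and 3. The ratio was therefore higher by 2.48, 2.54 and 1.91, with no overlap with wild type. Two-sided exact permutation tests of 4 against 3 libraries gave p = 0.0571 for each, the smallest value this design allows (0.0914 after Benjamini-Hochberg adjustment over 8 ratio tests). Btbd7 KO, at -13.65 ± 0.95, overlapped wild type (exact permutation p = 0.571).

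C920006O11Rik, counted as a gene, had 3 to 40 counts per library. Since the extent and strand of PROMPT regions are not given, this gene and the region upstream of Rn7sk may share reads. How many they share was not tested. Wild-type replicates 1 to 4 had 19, 7, 3 and 3 counts, and replicate 1 alone reached the level of the lower clone libraries. Btbd7 KO had 9, 8, 7 and 4 counts. Clone 1 had 19, 15, 13 and 19, clone 2 had 11, 30, 28 and 40, and clone 3 had 10, 8, 11 and 29.

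In CPM this was 0.510 ± 0.494 in wild type and 2.20 ± 0.291, 2.00 ± 0.579 and 1.27 ± 0.547 in the clones (SD, n = 4 each). On the log2 scale they were higher by 1.79 on average (SE 0.47, by edgeR an adjusted p of 0.00377). Clones 1 and 2 were called (2.09 and 1.96, adjusted p 0.0035 and 0.00555), and clone 3 was not (1.31, adjusted p 0.0695). Without wild-type replicate 1 the mean was 2.69 and clone 3 was called at 2.21 (edgeR adjusted p 0.00211); clone 2 missed the threshold, at 0.0569, when only the groups compared entered the fit.

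**Figure D3:**
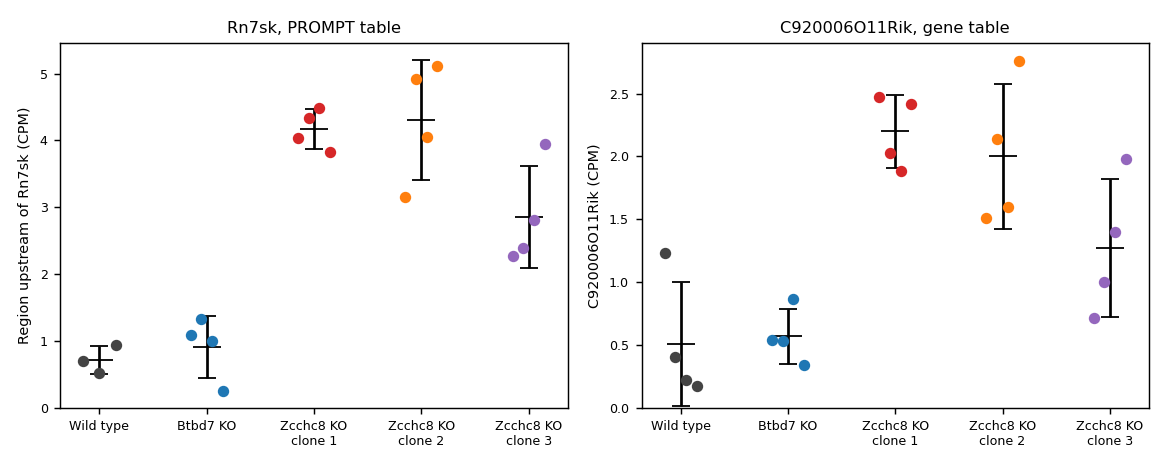
Levels in CPM (vertical axes, from 0) of the PROMPT region of Rn7sk (left, 19 libraries) and of the gene C920006O11Rik (right, 20 libraries), by group, with mean and SD. On the left all 12 Zcchc8 KO libraries lie above the wild-type and Btbd7 KO libraries, and on the right 10 of 12 do.

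Rmrp, the RNase MRP RNA, gave no count under ENSMUSG00000115420.1 or ENSMUSG00000088088.1. Taking 3 counts as the limit that a count of 0 allows, its listed level was at most 0.171 to 0.434 CPM per library; that limit covers counting error only. Its 2 PROMPT regions held 0 to 2 and 0 to 4 counts. No fold change can be given for Rmrp by its own identifiers.

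The PROMPT region of Ccdc107, on whose upstream side Rmrp lies, held 11258 to 39098 counts, 81.5 to 216 times the counts of the Ccdc107 gene in the same library. It ranked 10 to 13 among all regions. How many of these counts come from Rmrp was not tested, because the extent and strand of PROMPT regions are not given in the sources used here. Wild-type replicates 2, 3 and 4 held 1915, 1675 and 1230 CPM, and Btbd7 KO held 1532, 1299, 1603 and 1171.

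Clone 1 held 1914, 1982, 1841 and 1647 CPM, clone 2 held 1543, 1550, 2230 and 1187, and clone 3 held 1733, 1763, 1559 and 1648. Only 2 of the 12 clone libraries were above all wild-type libraries. The mean difference from wild type was 0.09 on the log2 scale (SE 0.09, edgeR adjusted p 0.438) and was not called. It turned on single wild-type libraries, at 0.24 and called without replicate 2 (edgeR adjusted p 0.0483) and at -0.05 without replicate 4.

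Btbd7 KO stood at -0.20 from wild type (SE 0.11, edgeR adjusted p 0.345), and without wild-type replicate 4 at -0.35 and called (0.0456). The Zcchc8 KO clones were 1.22-fold Btbd7 KO (log2 0.29, SE 0.08, edgeR adjusted p 0.00198). With library sizes taken within the PROMPT table instead of the gene table the sign turned in both comparisons of the clones, to -0.31 against wild type (edgeR adjusted p 0.00248) and -0.17 against Btbd7 KO (0.0657). That scaling moved the median of all regions from 0.43 to -0.02 against wild type.

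Rpph1, the RNase P RNA, had a median of 2 counts per library. Wild type had 9, 2, 0 and 2 counts, Btbd7 KO 0, 2, 4 and 4, and the clones 0 to 3. It did not pass the filter on low counts, and its PROMPT region held at most 1 count. Fitted without that filter, the clones minus wild type came to -0.44 on the log2 scale with an SE of 1.02, so the counts of Rpph1 bound nothing of use.

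Copies of Rpph1 were counted more often than Rpph1. Of 6 annotated copies 4 were at 0 in every library, whereas Rprl3, 86.0% identical over 257 bases, held 13 to 416 counts. Its lowest library by far was wild-type replicate 1, at 0.845 CPM. Rprl3 stood at 10.8 ± 7.53 CPM in wild type, 20.9 ± 2.94 in Btbd7 KO and 17.0 ± 2.43, 21.5 ± 7.59 and 16.7 ± 4.70 in the clones. The clones minus wild type gave a log2 value of 0.76 (SE 0.33) that missed the threshold, at an edgeR adjusted p of 0.0743. It was called at 1.17 without wild-type replicate 3 (0.0127) and stood at 0.40, not called, without wild-type replicate 1 (0.0664).

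The PROMPT region of Parp2, upstream of which Rpph1 lies whole, held 20402 to 69810 counts, 53.0 to 107 times the Parp2 gene count of the same library. It ranked 6 to 8 among all regions. Wild-type replicates 2, 3 and 4 held 2531, 2651 and 2006 CPM. Btbd7 KO held 2673, 2787, 2613 and 2297.

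Clone 1 held 2950, 3079, 2954 and 2775 CPM in the Parp2 region, clone 2 held 2836, 3059, 3982 and 2958, and clone 3 held 3381, 3154, 3246 and 3244. All 12 clone libraries were above the 3 wild-type libraries, and 11 were above all of Btbd7 KO. Group means were 2396 ± 343 CPM in wild type (SD, n = 3), 2593 ± 210 in Btbd7 KO and 2939 ± 125, 3209 ± 523 and 3256 ± 93.3 in the clones.

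The clones were 1.31-fold wild type, or 0.39 on the log2 scale (SE 0.07, by edgeR an adjusted p of 1.53e-06), and each was called, at 0.29, 0.42 and 0.44 (adjusted p 0.00113, 6.56e-06 and 2.54e-06). The median over all regions tested was 0.43, so the Parp2 region lay near it. Scaled within the PROMPT table its difference was -0.02 (edgeR adjusted p 0.812). Btbd7 KO was not called (0.11, SE 0.08, adjusted p 0.49). Against Btbd7 KO the clones were 1.21-fold higher (0.27, SE 0.06, edgeR adjusted p 7.26e-05), and -0.19 on the log2 scale when scaled within the table (0.00467).

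As a ratio to Rn7sk in the same library, the Parp2 region stood at -2.31 ± 0.25 on the log2 scale in wild type, -2.04 ± 0.08 in Btbd7 KO and -2.06 ± 0.11, -1.90 ± 0.15 and -1.90 ± 0.11 in the clones. Clones 2 and 3 did not overlap wild type (exact permutation p = 0.0571 each, adjusted 0.0914), and clone 1 and Btbd7 KO did (exact permutation p = 0.171 and 0.114).

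Ccnb1ip1, whose first exon covers 233 bases of Rpph1 on the same strand, was itself at 0 counts in the gene table in all 20 libraries. Its PROMPT region held 5877 to 29608 counts, 0.242 to 0.424 of the Parp2 region in the same library. Means were 744 ± 230 CPM in wild type (SD, n = 3), 898 ± 205 in Btbd7 KO and 840 ± 57.2, 1057 ± 422 and 1070 ± 119 in the clones, and 4 of the 12 clone libraries were above all wild-type libraries. The clones minus wild type were called at 0.40 (SE 0.12, edgeR adjusted p 0.00613), where the median of all regions was 0.43 and 39.2% were called higher. Scaled within the PROMPT table the difference was -0.0029 (edgeR adjusted p 0.986). That call was also lost without wild-type replicate 4 (0.19, edgeR adjusted p 0.209), with DESeq2 (0.45, adjusted p 0.103), and with the 3 clones as lines against wild type and Btbd7 KO together (0.29, edgeR adjusted p 0.138).

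**Figure D4:**
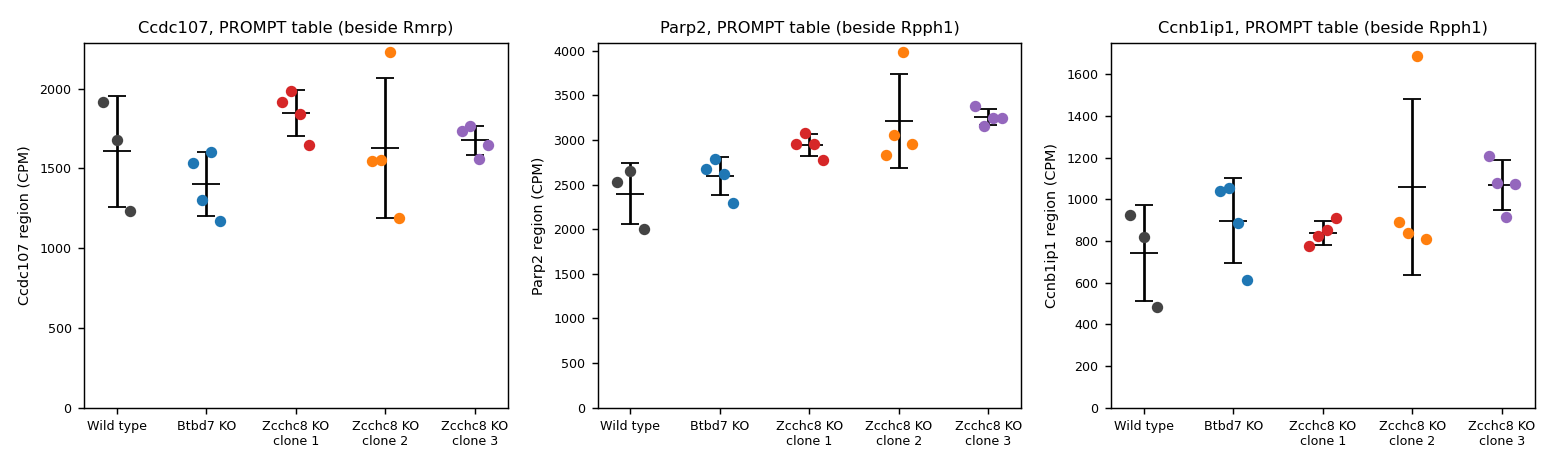
Levels in CPM (vertical axes, from 0) of the PROMPT regions of Ccdc107, Parp2 and Ccnb1ip1 in 19 libraries by group, with mean and SD. All 12 Zcchc8 KO libraries lie above wild type for Parp2, against 2 for Ccdc107 and 4 for Ccnb1ip1.

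The regions of C920006O11Rik, Ccdc107, Parp2 and Ccnb1ip1 together held 7.35% to 9.17% of all counts in the PROMPT table. Counts of short RNA genes in the gene table were also tallied by their overlap with other genes, with no test. Among short RNA genes (small nuclear, nucleolar and Cajal body RNAs, miscellaneous RNAs, ribozymes and ribosomal RNAs) with at least 70% of their bases under a same-strand exon of another gene, 4 of 296 (1.35%) reached 10 counts in some library. Of those under exons of the opposite strand only, 7 of 76 (9.21%) did, and of those under no exon, 300 of 3438 (8.73%). Rmrp has such a same-strand partner in its own second identifier, Rpph1 has Ccnb1ip1, and Rn7sk has none. The members were not removed from this tally. The ribozyme identifier of Rmrp and Rpph1 count in the same-strand class, and Rn7sk in the class under no exon. The shares are therefore not independent of the members. The part of this overlap in the counts of Rmrp and Rpph1 was not tested.

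Of the 7 genes of the 7SK particle and P-TEFb, 1 was called higher in the Zcchc8 KO clones and 2 lower, where 16.2% and 19.9% of all genes were. Their median log2 fold change was 0.03, against -0.01 over all genes. Hexim1, which inhibits P-TEFb when bound to 7SK, rose by 0.32 (SE 0.08, edgeR adjusted p 0.00223), from 29.3 ± 3.97 CPM to 32.4 ± 2.21, 45.1 ± 2.88 and 33.4 ± 2.42; of the single clones, clone 2 was called (0.62). It rose in Btbd7 KO too, by 0.50 (edgeR adjusted p 0.000401), where 7.73% of genes were called higher and 8.0% lower.

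Larp7, which protects the 7SK end, fell by 0.25 in the clones (SE 0.08, edgeR adjusted p 0.0167), from 43.6 ± 5.96 CPM to 37.5 ± 4.69, 32.0 ± 1.79 and 40.8 ± 4.03, and of the single clones clone 2 was called (-0.44). Ccnt1, the cyclin of P-TEFb, fell by 0.17 (SE 0.05, edgeR adjusted p 0.0108), and its mean was 188 ± 12.8 CPM in wild type and 146 ± 6.70 in clone 3, the single clone called. Neither was called without TMM (-0.18 and -0.09), Larp7 was not called without wild-type replicate 2 or 4 (-0.20 and -0.19), and Ccnt1 was not called without wild-type replicate 1 or 4 (-0.10 and -0.14). Mepce, the capping enzyme, stood at 0.07 and Cdk9, the kinase, at 0.03, neither called for the mean of the clones (edgeR adjusted p 0.497 and 0.775).

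Of the 11 proteins of RNase P and RNase MRP, 10 were tested (Rpp25 did not pass the filter), 4 were called lower in the clones and none higher by edgeR, where 19.9% and 16.2% of all genes were, and their median was -0.20. DESeq2 and the fit without TMM each called 4 lower and 1 higher, and the clones as lines against wild type and Btbd7 KO together gave no call. Rpp40 fell by 0.73 (SE 0.13, edgeR adjusted p 6.17e-05), from 15.7 ± 3.00 CPM in wild type to 8.34 ± 0.751, 11.3 ± 2.26 and 8.78 ± 1.47. Pop1, the largest shared protein, fell by 0.58 (SE 0.07, edgeR adjusted p 1.24e-06), from 42.6 ± 3.02 CPM to 31.4 ± 2.42, 29.4 ± 3.03 and 25.0 ± 2.19.

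Rpp30 fell by 0.40 (SE 0.07, edgeR adjusted p 0.000142), from 63.2 ± 7.80 CPM to 48.5 ± 5.29, 49.6 ± 5.47 and 46.1 ± 2.79. Pop1, Rpp30 and Rpp40, which had the lowest p of this list for the clones together, were each called in every clone. Of all genes, 35.8%, 32.3% and 29.3% were called in clones 1, 2 and 3 in either direction. Pop4 was the other gene of this list called lower for the clones together, at -0.33. No gene of this list was called in Btbd7 KO in the edgeR fit, where the values of Pop1, Rpp30 and Rpp40 were -0.19, -0.02 and -0.03.

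Of 18 RNA polymerase III subunits, 4 were called lower and none higher by edgeR, with a median of -0.07. Over all genes 19.9% were called lower, so this count is near the background. Without TMM 2 were called lower and 2 higher. Polr3g, one of the paralogous subunits that distinguish forms of the enzyme, fell by 0.42 (SE 0.10, edgeR adjusted p 0.00163), from 23.97 ± 1.79 CPM to 18.8 ± 3.33, 17.1 ± 2.54 and 17.8 ± 1.68. Polr3e fell by 0.39 and Polr3b, part of the catalytic core, by 0.21 (edgeR adjusted p 0.00512 and 0.00624); without TMM Polr3b was not called (-0.14, adjusted p 0.0803).

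Of 12 factors that act at promoters of this type or on Pol III output, 2 were called lower and none higher by edgeR (median 0.06), against 19.9% and 16.2% of all genes. DESeq2 called 1 higher and the fit without TMM 2. Bdp1, part of the initiation factor TFIIIB, fell by 0.23 (SE 0.04, edgeR adjusted p 0.000167). Pou2f1, which encodes the octamer-binding activator Oct-1, fell by 0.23 (SE 0.05, adjusted p 0.000853) and was called in Btbd7 KO as well (-0.23, adjusted p 0.0133). Snapc1 and Brf2, which act at these promoters, stood at 0.13 and 0.09 in the clones (edgeR adjusted p 0.493 and 0.699). Snapc1 rose by 0.71 in Btbd7 KO (adjusted p 0.0034).

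Maf1, the repressor of Pol III, stood at 0.21 (SE 0.09, edgeR adjusted p 0.0636), and Ssb, the La protein that binds new Pol III transcripts, at -0.10 (adjusted p 0.331). Leaving out 1 library changed both: Ssb was called at -0.20 without wild-type replicate 1, and Maf1 was called, at 0.23 to 0.30, without wild-type replicate 2, clone 1 replicate 2 or clone 2 replicate 1. With all libraries Maf1 was called by DESeq2 (0.24, adjusted p 0.0243), and by edgeR without TMM (0.29, 0.0134) and with short RNA genes left out of the scaling (0.23, 0.044).

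Of 8 factors of the other Pol III promoters, 1 was called higher and 2 lower by edgeR, where 16.2% and 19.9% of all genes were. These counts are near the background. Brf1 rose by 0.26 (edgeR adjusted p 0.0168), while Gtf3c3 and Gtf3c1, subunits of TFIIIC, fell by 0.33 and 0.21 (adjusted p 0.000772 and 0.00316). The median of those 8 was -0.05. Without wild-type replicate 1, Brf1 stood at 0.19 and was not called, and without TMM Gtf3c1 was not called (-0.13, adjusted p 0.0705).

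With counts summed per line and the 3 clones set against wild type and Btbd7 KO together, edgeR called no gene of these 5 lists. Rpp40 stood there at -0.68, Pop1 at -0.48, Polr3g and Polr3e at -0.44 each, Rpp30 at -0.39, Brf1 at 0.36, Gtf3c3 at -0.30, Larp7 at -0.24, Polr3b at -0.22, Gtf3c1 at -0.19 and Bdp1 at -0.18. Pou2f1 stood at -0.12, Ccnt1 at -0.09 and Hexim1 at 0.05.

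**Figure D5:**
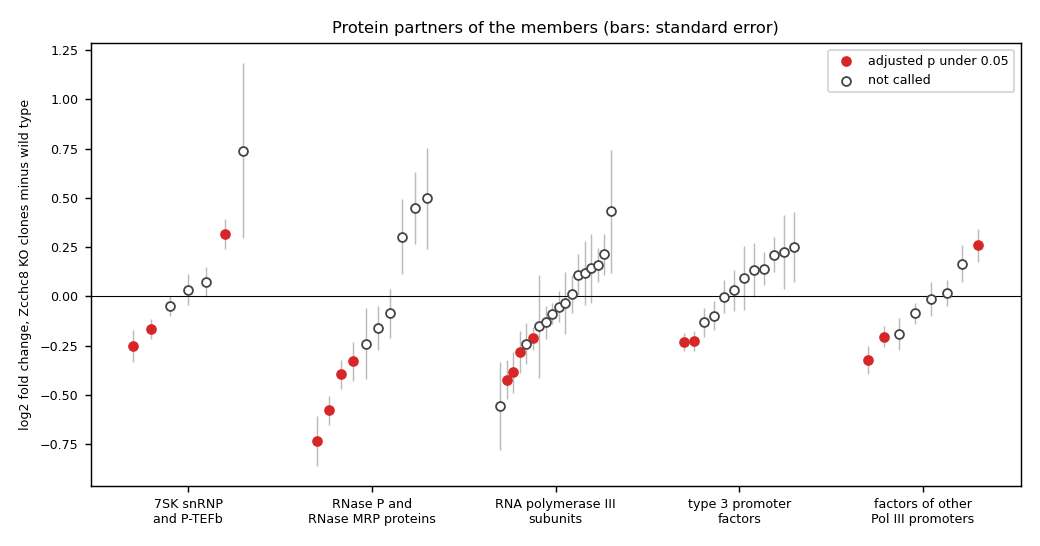
Log2 fold change, Zcchc8 KO clones against wild type (vertical axis, with standard error) for each tested gene of 5 lists of protein partners and transcription factors (horizontal axis). Filled points passed an adjusted p of 0.05; among the RNase P and RNase MRP proteins 4 of 10 did, all of them lower.

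Other Pol III transcripts were mostly out of reach of these counts. Of 188 identifiers, 5 passed the filter. None of them was called in the clones, where 36.1% of all genes were called in either direction, and their median was -0.06. Of 180 5S ribosomal RNA genes 147 were at 0 in every library and the highest count was 23, and the 7SL RNA genes Rn7s1, Rn7s2 and Rn7s6 had at most 5 counts. Per kilobase of exon, wild-type Rn7sk stood at 35220 CPM, the Y RNA genes Rny1 and Rny3 at 992 and 863, and the vault RNA gene Vaultrc5 at 289.

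Rny1 and Rny3 stood far higher in wild-type replicate 1 (288 and 178 CPM) than in wild-type replicates 2 to 4 (40.6 to 65.0 and 53.8 to 63.8). Rn7sk, at 11162 CPM, did not stand out in that library. The clones minus wild type came to -0.31 for Rny1 and -0.38 for Rny3 (edgeR adjusted p 0.552 and 0.352) and to 0.80, called, and 0.24 without that library (0.0081 and 0.44). Bc1, a short rodent RNA, had 2 to 29 counts per library and stood at 0.17 (SE 0.48, edgeR adjusted p 0.824).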

How the data were processed

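Total RNA was extracted with TRIzol and columns and made into stranded libraries, per the labels' protocols. The submitters' processing notes name FastQC and STAR 2.7.3a; the counter, strand setting, genome build and PROMPT extent are not given in the sources used here. The authors deposited raw counts, whole numbers per gene or region and library. The gene table with all 20 libraries was the main one, and 19 columns of the other were identical. Regulatory feature tables carry no coordinates and were not used. Positions come from GENCODE M21, which matched 55230 of 55471 identifiers without versions (54573 with them).

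Counts were tested with edgeR 4.0.16 (R 4.3.3; glmQLFit, glmQLFTest) in 1 fit per table over all groups after filterByExpr, called at a Benjamini-Hochberg adjusted p under 0.05. Library sizes and TMM factors came from the gene table for both tables. Ratios used log2(counts + 0.5) and exact permutation tests (scipy 1.17.1). The planned ratios among the 3 genes were not computed, because Rmrp was at 0 and Rpph1 at 9 counts or fewer. Copies were found with blastn 2.17.0. No library repeated another of its own group: over 30 pairs of replicates, chi-square divided by its degrees of freedom was 2.85 to 73.6. Pairs of libraries from different groups were not checked in this way. The fits were tested on simulated data first.

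The members and lists were chosen with earlier results of these data known. Named were the members, their neighbours and copies, 12 fixed partner genes, up to 3 genes per list with the lowest p, and the 3 genes most correlated with Rn7sk. The result of 1 further gene is not reported here. Alternatives were DESeq2 1.42.0, 2 other filters, other scalings, only the groups compared, a replicate block, the other gene table, cell lines as replicates (3 clones against wild type and Btbd7 KO together), another pseudocount and leaving out each library. Neighbour regions, their ratio to Rn7sk, the overlap shares and the sum of Rny1, Rny3 and Vaultrc5 were added after seeing the data.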

Additional observations from a re-analysis of the deposited data

Results flagged for a closer look

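Among 80 sets of 4 libraries, 8 held a library far from the other 3, where chance gives about 1 in 20. Clone 2 replicate 3 was the highest of its group for Rn7sk (12846 CPM, others 11506 to 11609), for the C920006O11Rik region that lists the same counts (12847 CPM, others 11508 to 11613) and for the Ccnb1ip1 region beside Rpph1 (1689 CPM, others 808 to 894). Wild-type replicate 1 was the highest of its group for Rny1 (288 CPM), for Rny3 (178 CPM), for the sum of Rny1, Rny3 and Vaultrc5 (529.6 CPM, others 129 to 158) and for the sum of all short RNA genes without the members (1731 CPM, others 1125 to 1174). Clone 2 replicate 1 was highest for the sum of the Rn7sk copies (10.4 CPM, others 6.08 to 6.48).

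The edgeR test of a difference among the Zcchc8 KO clones, with Benjamini-Hochberg adjustment over all genes, called 9 of the 27 named genes tested, against 28.5% of all genes. The adjusted p was 5.26e-06 for Bdp1, 0.000288 for Cdk9, 0.000315 for Hexim1, 0.000336 for Ccnt1, 0.00441 for Ssb, 0.0349 for Larp7, 0.0369 for Pop1 and 0.0469 for each of Maf1 and Bc1. Against wild type, Cdk9 stood at 0.35 in clone 1 and at -0.17 and -0.08 in clones 2 and 3, and Bdp1 at -0.43, -0.01 and -0.25 in clones 1, 2 and 3.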

How the results depend on the processing

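All values here are log2 differences. Of 72 results, under 1964 alternatives in all, those on the members' own counts and regions kept their direction, with these exceptions. Without TMM, Rn7sk in the clones against wild type was 0.13 (called), and without wild-type replicate 1, or with the other gene table, Rn7sk in Btbd7 KO was -0.14 (called). Leaving out clone 2 replicate 3 turned Rn7sk in clone 2 to -0.0087 (up to 0.075 without wild-type replicate 4). Scaling within the PROMPT table turned the clones against wild type to -0.021 for the Parp2 region (-0.16 in clone 1), -0.31 for Ccdc107 and -0.00292 for Ccnb1ip1, and against Btbd7 KO to -0.19 for Parp2 and -0.17 for Ccdc107; this scaling centres a general change of all regions on 0. Leaving out each library gave -0.048 to 0.24 for the Ccdc107 region in the clones against wild type, -0.35 to -0.052 for it in Btbd7 KO and -0.16 to -0.10 for Rn7sk in Btbd7 KO. For the upstream region of Rn7sk the range was 2.19 to 2.60. Among other named genes, Bc1 turned to -0.11 without wild-type replicate 3 and -0.08 without clone 3 replicate 3. With cell lines as replicates, which sets the clones against wild type and Btbd7 KO together and so changes the comparator too, Brf2 was at -0.057, Rny1 at 0.075 and Snapc1 at -0.27. Without wild-type replicate 1, or with the other gene table, Brf2 was at -0.12, Rny1 at 0.80, Rny3 at 0.24 and Snapc1 at -0.013. The other ends of these ranges were 0.51 for Bc1, -0.58 for Rny1, -0.54 for Rny3 and 0.25 for Snapc1. With no filter on low counts Rny1 (-0.31), Rny3 (-0.38) and Rprl3 (0.76) were called. Except where stated, the cause was not tested. Rmrp and Rpph1 have 0 and at most 9 counts, so depth limits any statement on them.

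Replicate numbers were also entered as a replicate block. Of 40 same-numbered pairs of libraries, 2 had deviations correlated over 0.1 (-0.087 to 0.152), and 1 of 20 libraries correlated best with its own number. What a shared number stands for is not given in the labels. With the block, Rn7sk in the clones against wild type was 0.06 (edgeR adjusted p 0.358), its upstream region 2.40 (9.36e-08) and the Parp2 region 0.40 (7.74e-08); among the RNase P and RNase MRP proteins, the count called higher moved from 0 to 1.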

Other observations

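Among short RNA genes other than the 3 members, 2 classes stood above wild type in every clone library and 2 overlapped it. Small nucleolar RNA genes summed to 489 ± 38.8 CPM in wild type (SD, n = 4), 451 ± 43.2 in Btbd7 KO and 1070 ± 67.1, 711 ± 59.95 and 775 ± 35.9 in clones 1, 2 and 3, with every clone library above every control library. Small nuclear RNA genes summed to 397 ± 71.5 CPM in wild type, 330 ± 66.2 in Btbd7 KO and 980 ± 79.4, 598 ± 62.7 and 605 ± 45.6 in the clones, again without overlap. The share of all genes, or of other sums of genes, that separate in this way was not counted. Miscellaneous RNA genes, the class of Rn7sk, summed to 266 ± 190 CPM in wild type and 297 ± 107, 204 ± 55.5 and 216 ± 35.5 in the clones, and Cajal body RNA genes to 137 ± 16.2 in wild type and 166 ± 21.4, 123 ± 15.995 and 138 ± 11.3, both with overlap. Over all short RNA genes wild-type replicate 1 (1731 CPM) lay within the range of clone 2 (1465 to 1868) and of clone 3 (1605 to 1893). Rn7sk, at 11658 ± 620 CPM in wild type and 11873 ± 650 to 12271 ± 654 in the clones, overlapped wild type. Neither these sums nor their difference from Rn7sk was tested.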
